A study of Homo sapiens with 16 samples.

Results

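The genes described here are 42 genes of the G2 phase, mitotic entry, the spindle and cytokinesis, out of 60658 genes in the tables. They were chosen by symbol, from cyclins and mitotic kinases to kinetochore, spindle and cytokinesis genes, and every symbol matched a single row. RNA-seq was run on MDA-MB-231 cells, an established human line of triple-negative breast cancer, at passages 10 to 15, as wild type (WT) or as a BMAL1 knockout (BMAL1 -/-, here KO; the gene's symbol is ARNTL). Each genotype was kept as control or given cisplatin, doxorubicin or tunicamycin, which makes 8 groups of 2 samples that the labels call biological replicates. The labels name no clone, guide or edited part of ARNTL, and neither dose nor time of any drug is given in the sources used here. Levels are in FPKM (fragments per kilobase of transcript length, scaled to library size), with 1 value per group that the authors made from both replicates, so no spread between replicates can be printed. A gene is called higher or lower in KO cells where the authors' q, the p-value of Cuffdiff adjusted over all tested genes of a treatment, was at most 0.05.

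Cells enter mitosis when CDK1 bound to cyclin B is activated by CDC25 phosphatases. Polo and aurora kinases then drive spindle assembly, kinetochores couple chromosomes to microtubules, and the spindle checkpoint holds back the anaphase-promoting complex until every chromosome is attached. Most of these genes are transcribed late in the cell cycle, which is why their RNA is widely read as a sign of proliferation. They are known to be repressed by the DREAM complex and activated by B-MYB and FOXM1, with the MuvB core binding a promoter element called CHR (cell cycle genes homology region) and NF-Y binding CCAAT boxes. BMAL1 pairs with CLOCK to activate circadian genes from E-box elements. Cisplatin crosslinks DNA, doxorubicin intercalates into DNA and poisons topoisomerase II, and tunicamycin blocks N-linked glycosylation and so stresses the endoplasmic reticulum. In bulk RNA, fewer cells in G2 or mitosis and less RNA per such cell cannot be told apart.

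The promoters of 35 of the 42 genes were matched in a RefSeq table (GRCh38.p14, 250 bases before to 50 after each start), in 45 entries because some genes have several starts. AURKA, BIRC5, BUB3, TTK, UBE2C, TPX2 and FOXM1 were not matched. The stretches below are shown because each carries a CHR at a similar distance from the start while the genes differ widely in level under doxorubicin. Each runs 5′ to 3′ over the 90 bases that end just before the start, and capitals mark matches to CHR (TTTGAA or TTCGAA on either strand, so also TTCAAA) and to the CCAAT box (CCAAT, or ATTGG on the other strand). In CKS2, KIF11, CKS1B and KIF4A a CCAAT box lies upstream of the CHR, while in MKI67 the only one in this stretch begins at -24 and overlaps the end of the CHR at -29.
CKS2: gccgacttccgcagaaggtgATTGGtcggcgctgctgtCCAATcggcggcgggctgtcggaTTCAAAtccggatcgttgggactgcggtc
KIF11: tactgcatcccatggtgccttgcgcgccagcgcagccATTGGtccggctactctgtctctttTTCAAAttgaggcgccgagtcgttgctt
MKI67: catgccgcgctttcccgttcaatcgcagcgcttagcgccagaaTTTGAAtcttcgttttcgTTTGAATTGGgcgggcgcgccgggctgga
CKS1B: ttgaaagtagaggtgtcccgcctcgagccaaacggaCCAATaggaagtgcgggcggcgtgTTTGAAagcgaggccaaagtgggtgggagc
KIF4A: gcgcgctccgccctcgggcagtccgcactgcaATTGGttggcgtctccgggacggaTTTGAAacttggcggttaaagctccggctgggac
The stretches lie at chr9:89311105-89311194 (plus strand) for CKS2, chr10:92593040-92593129 (plus strand) for KIF11, chr10:128126424-128126513 (minus strand) for MKI67, chr1:154974591-154974680 (plus strand) for CKS1B and chrX:70290014-70290103 (plus strand) for KIF4A. The CHR match nearest the start began at -29 in CKS2, -28 in KIF11, -29 in MKI67, -30 in CKS1B and -34 in KIF4A. CKS2, KIF11 and MKI67 stood at 2.65%, 3.53% and 9.29% of control under doxorubicin in WT cells, and KIF4A and CKS1B at 61.2% and 131%.

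Of the 45 promoter entries, 29 (64.4%) held a CHR match, against 16.4% of all 35116 promoters of the same length. A CCAAT box was found in 33 entries (73.3%), against 34.6% of all promoters, and both elements in 24 entries (53.3%), against 6.38%. The E-box CACGTG, which reads the same on both strands, was in 5 entries (11.1%), against 7.26% of all promoters. Counted by gene, 26 of the 35 had a CHR and 28 a CCAAT box, against 19.5% and 39.7% of all 27305 gene symbols. In 22 genes both lay in the same entry, and 5 had an E-box, against 7.85% and 8.77%. In a range set after the positions were seen, a CHR began between -40 and -15 in 14 entries (31.1%), against 527 of the 35116 promoters in all. A match is a match of letters only, and no match says no more than that these letters are not in the window.

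**Figure D1:**
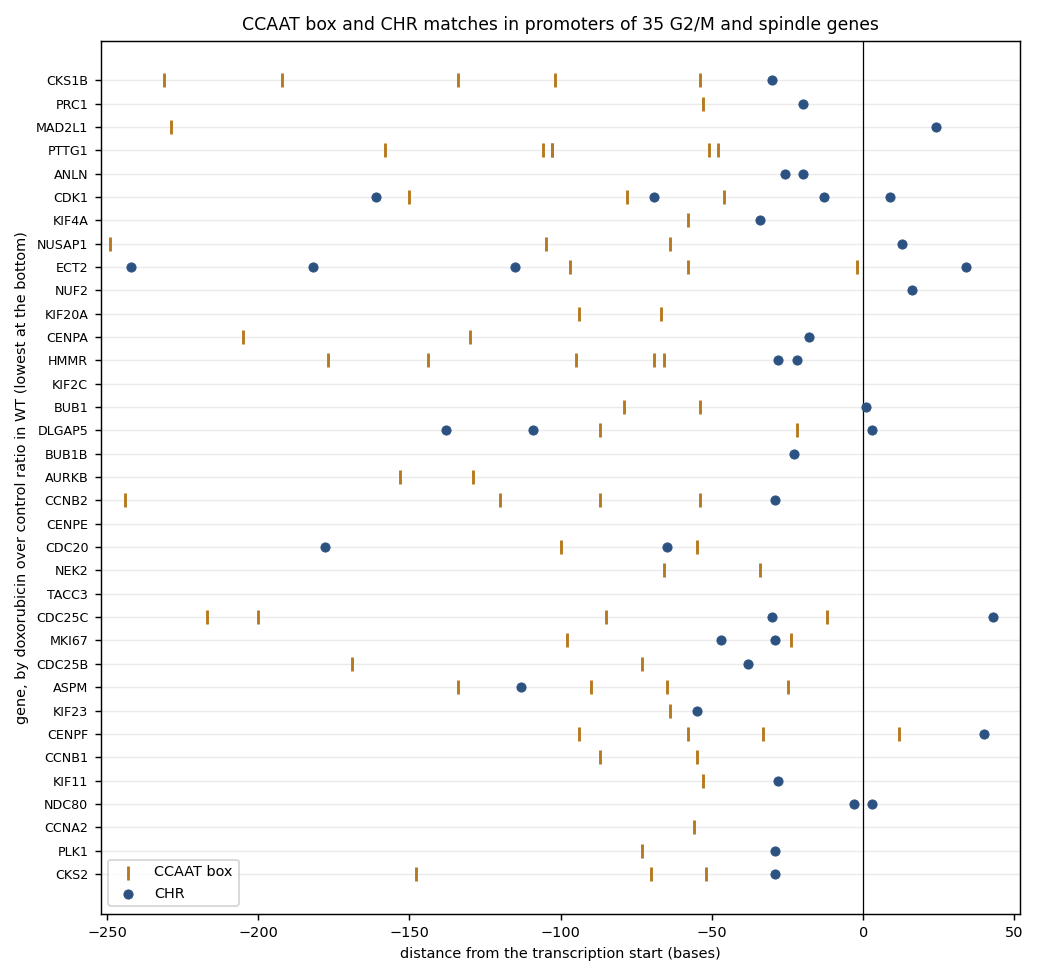
Positions of CHR (dots) and CCAAT box (ticks) matches, as the distance in bases of the first base of each match from the transcription start, for the 35 genes with a matched promoter (several starts of a gene are drawn on 1 line). Genes are ordered by their doxorubicin over control ratio in WT cells with the lowest at the bottom, and matches of both kinds occur from CKS2 at the bottom to CKS1B at the top.

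The knocked-out gene, ARNTL, had 5.67 FPKM in WT and 0.889 in KO control cells, 1.26 and 0.941 under cisplatin, 1.31 and 0.474 under doxorubicin, and 3.25 and 2.24 under tunicamycin. It was lower in the KO group of each treatment, with a q of 0.000213 in control and 0.00509 under doxorubicin, and 0.467 under cisplatin and 0.0810 under tunicamycin, in the authors' deposited table. The mesenchymal marker VIM ranged from 2883 to 6640 FPKM over the 8 groups. Others of the 5 mesenchymal markers differed by genotype, with CD44 at 432 and 229 FPKM and CAV1 at 204 and 443 in WT and KO control cells. Of 7 luminal markers, ESR1 (at most 0.196), PGR (listed at 0), CDH1 (at most 0.349) and FOXA1 (at most 0.681) were near 0 in every group. Of the rest, ERBB2 ranged from 7.11 to 25.5 FPKM, EPCAM was lower in KO cells in each table (5.09 to 1.29 in control), and GATA3 was higher in all but doxorubicin (0.742 to 3.82 in control); the part of these markers in the results was not tested. The extraction protocol speaks of fibroblast lines. Of 9 fibroblast markers, DCN was listed at 0 in every group and LUM, THY1 and COL1A2 did not exceed 0.303, while COL1A1 and PDGFRB were called higher in KO control cells (2.32 to 5.74 and 1.69 to 6.83 FPKM). Their summed level was 1.05 to 9.07 FPKM in the WT groups and 3.92 to 15.6 in the KO groups, and its part in the results below was not tested. The share of summed FPKM in the 13 mitochondrial mRNAs moved with genotype, from 4.95% in WT to 3.62% in KO control cells, 4.57% to 3.16% under cisplatin, 9.71% to 9.37% under doxorubicin and 6.37% to 3.60% under tunicamycin, and its part in the results was also not tested.

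Most of the 42 genes were lower in KO than in WT cells in control, cisplatin and tunicamycin, and fewer of them under doxorubicin. In control cells 33 were called lower and 1 higher, where 21.1% of all 12978 tested genes were called lower and 22.7% higher (43.8% called in all). In cisplatin 33 were lower and 6 higher, against 24.2% and 25.4% of all tested genes (49.6% in all). In tunicamycin 38 were lower and 1 higher, against 22.1% and 27.2% (49.3% in all). In doxorubicin 18 were lower and 5 higher, against 20.7% and 24.4% (45.1% in all). The median log2 ratio of KO over WT over the 42 genes was -0.45 in control, -0.33 under cisplatin, -0.22 under doxorubicin and -0.32 under tunicamycin, and that of all tested genes was 0.01, 0.02, 0.04 and 0.03. With at least 1.5-fold asked as well, 17 genes were lower in control (11.8% of all tested genes) and 7 under cisplatin (11.9%). Under doxorubicin 12 were lower (13.1%), and under tunicamycin 5 (10.5%). At this fold the lower calls were well above the share of all genes in control and doxorubicin. They were only somewhat above it under cisplatin and close to it under tunicamycin, so most calls under these drugs are of small folds.

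Summed over the 42 genes, their share of all FPKM was 0.787% in WT and 0.563% in KO control cells, 0.577% and 0.473% under cisplatin, 0.235% and 0.194% under doxorubicin, and 0.619% and 0.451% under tunicamycin. The share was lower in KO cells under each treatment, and both doxorubicin groups lay below the other 6. All 42 genes were tested in each of the 4 tables, so no low-value filter removed any. The p-values of Cuffdiff cannot go below a fixed floor, and 31, 32, 15 and 36 of the genes in control, cisplatin, doxorubicin and tunicamycin sat at the smallest q in the authors' deposited table (0.000213, 0.000167, 0.000186 and 0.000173), together with 3044, 4267, 3193 and 4016 genes in all. A q therefore does not rank these genes, and they are ordered below by their ratio.

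**Figure D2:**
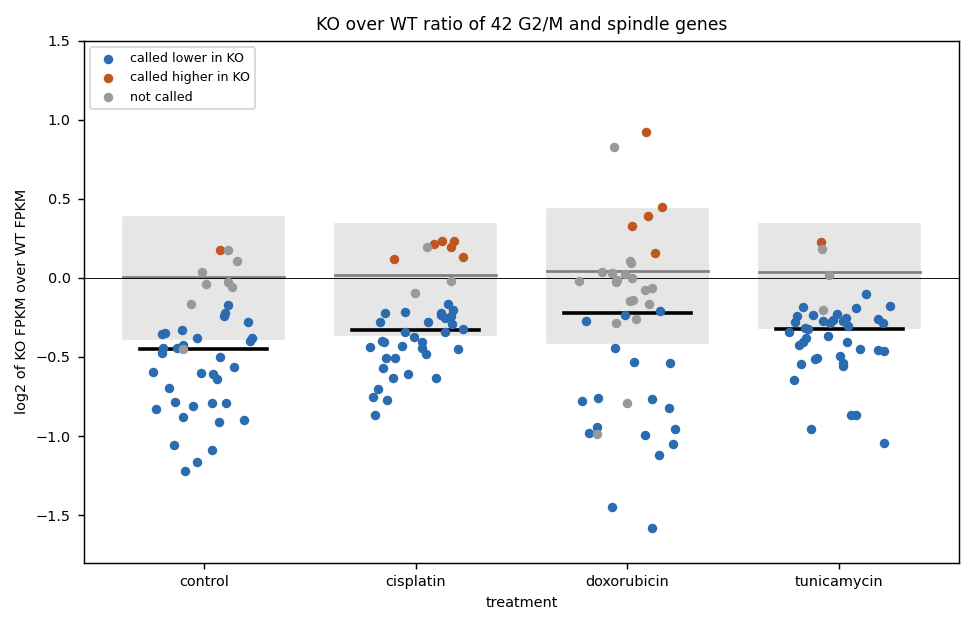
The log2 ratio of KO over WT FPKM of each of the 42 genes (dots, blue where called lower, orange where called higher, grey where not called) by treatment, with the median of the 42 (black line), and the median (grey line) and middle 50% (grey box) of all tested genes. The black line is at -0.45, -0.33, -0.22 and -0.32 from left to right, below the grey line each time, and doxorubicin has the widest spread, from -1.58 to 0.92.

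In all, 15 of the 42 genes were called lower in KO cells under all 4 treatments, against 942 of 10881 genes tested in all 4 tables (8.66%). These were CCNB2, CKS2, NEK2, BUB1, BUB3, CENPF, NUF2, KIF11, KIF23, NUSAP1, PRC1, HMMR, ASPM, ANLN and ECT2. They come from every functional group that follows except the passenger complex, the anaphase-promoting complex with securin, and FOXM1 with MKI67. Another 10 genes were called lower under at least 1 treatment and higher under at least 1 other, against 1407 of 10881 genes (12.9%). Each of the 42 genes was called lower at least once, against 44.9% of those 10881 genes. Lower in control, cisplatin and tunicamycin alike were 28 genes (11.1% of the 10881), and 26 had a ratio below 0 in all 4 tables (22.5%). The 4 tables have no sample in common.

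**Figure D3:**
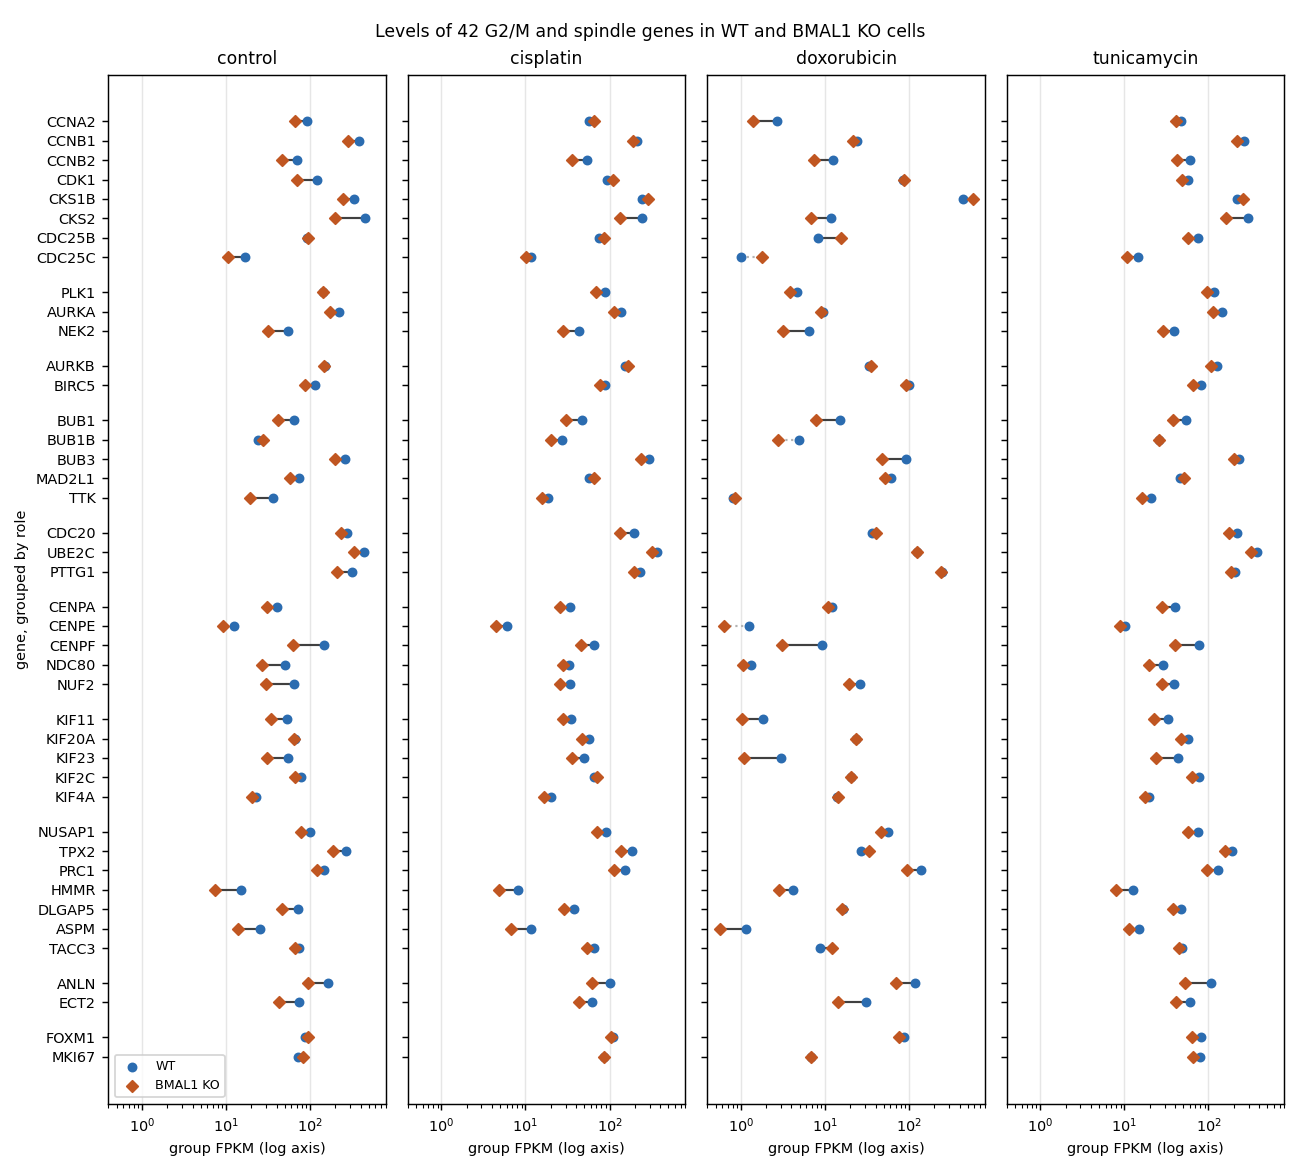
Group FPKM of each gene (log axis) in WT (blue circles) and KO (orange diamonds) cells, 1 panel per treatment, with genes grouped by role. A solid line joins groups that differ by the call and a dotted line those that do not, and most orange diamonds lie to the left of the blue circles, while CKS1B, CDC25B, TACC3, TPX2 and CDC20, called higher under doxorubicin, lie to the right in that panel.

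Among the cyclins, CDK1 and its activators, 7 of 8 genes were lower in KO control cells, and this group had the least uniform calls under the drugs: 4 lower and 4 higher under cisplatin, 3 lower and 2 higher under doxorubicin, and 7 lower and 1 higher under tunicamycin. CKS2, a small subunit that binds CDK1 and aids its multisite phosphorylation of substrates, had 448 FPKM in WT and 199 in KO control cells, 244 and 134 under cisplatin, 11.8 and 6.92 under doxorubicin, and 297 and 163 under tunicamycin. Every KO value lay below its WT partner, by a log2 ratio of -1.17, -0.87, -0.78 and -0.87, and CKS2 was the most abundant of the 42 genes in WT control cells. Its paralog CKS1B, which also serves the SCF-SKP2 ligase in degrading p27, had 334 and 246 FPKM in control, 244 and 286 under cisplatin, 437 and 573 under doxorubicin, and 220 and 258 under tunicamycin. CKS1B was thus called lower in control and higher in KO cells under all 3 drugs. The log2 ratio of CKS1B was -0.44 in control and 0.23, 0.39 and 0.23 in the order cisplatin, doxorubicin and tunicamycin.

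CDK1, the kinase that triggers mitosis, had 122 FPKM in WT and 70.8 in KO control cells, 93.2 and 110 under cisplatin, 86.0 and 86.0 under doxorubicin, and 57.6 and 48.2 under tunicamycin. It was called lower in control and tunicamycin and higher under cisplatin, and the doxorubicin groups were equal to 3 digits (q = 0.995 in the authors' deposited table). Cyclin A2 (CCNA2), the cyclin of S phase and G2, had 92.5 and 66.5 FPKM in control, 56.6 and 65.8 under cisplatin, 2.68 and 1.38 under doxorubicin, and 47.7 and 40.7 under tunicamycin. It followed CDK1 in being lower in control and tunicamycin and higher under cisplatin, and it was also lower under doxorubicin, by a log2 ratio of -0.96. Reads of CCNA2 may be shared with EXOSC9, whose exons overlap it. The mitotic cyclins were lower: CCNB1 had 386 and 284 FPKM in control, 215 and 191 under cisplatin, 23.9 and 21.3 under doxorubicin (not called), and 265 and 220 under tunicamycin.

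CCNB2, the other mitotic cyclin, had 69.3 and 46.8 FPKM in control, 54.6 and 35.9 under cisplatin, 12.5 and 7.38 under doxorubicin, and 60.9 and 42.7 under tunicamycin, and was lower in KO cells throughout. CDC25B, a phosphatase that starts CDK1 activation at the centrosome, had 92.4 and 94.7 FPKM in control (not called), 75.9 and 87.1 under cisplatin, 8.18 and 15.5 under doxorubicin, and 75.9 and 57.5 under tunicamycin. Its log2 ratio of 0.92 under doxorubicin was the highest of the 42 genes in any table, and the gene was called lower under tunicamycin. CDC25C, the phosphatase that completes CDK1 activation, had 17.0 and 10.5 FPKM in control, 11.7 and 10.1 under cisplatin, 1.02 and 1.80 under doxorubicin (not called, q = 0.0584 in the authors' deposited table), and 14.5 and 10.8 under tunicamycin.

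The mitotic kinases PLK1, AURKA and NEK2 were lower in KO cells in 9 of 12 comparisons and in none higher. NEK2, which separates centrosomes before mitosis, had 54.6 and 31.2 FPKM in control, 43.3 and 27.9 under cisplatin, 6.39 and 3.21 under doxorubicin, and 39.0 and 28.5 under tunicamycin. AURKA, the centrosomal aurora kinase, had 219 and 172 FPKM in control, 136 and 112 under cisplatin and 147 and 114 under tunicamycin, all called lower, and 9.48 and 8.997 under doxorubicin, which was not called. PLK1, the polo kinase of mitotic entry and spindle assembly, had 143 and 141 FPKM in control (not called), 89.1 and 68.7 under cisplatin, 4.63 and 3.87 under doxorubicin (not called), and 115 and 95.7 under tunicamycin. So the 3 kinases were lower together under cisplatin and tunicamycin, and NEK2 was lower in all 4 tables.

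The passenger complex corrects wrong kinetochore attachments, and of the 8 comparisons of its 2 genes 4 were called lower and 1 higher. AURKB, its kinase, had 150 and 146 FPKM in control and 33.2 and 35.7 under doxorubicin, neither of them called, 153 and 167 under cisplatin (higher) and 126 and 107 under tunicamycin (lower). BIRC5 (survivin), its subunit that also bears an inhibitor of apoptosis domain, had 113 and 87.0 FPKM in control, 87.7 and 76.2 under cisplatin, 101 and 91.7 under doxorubicin (not called), and 81.9 and 65.7 under tunicamycin.

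Spindle checkpoint genes were lower in KO cells in 14 of 20 comparisons and never higher. BUB3, which carries BUB1 and BUBR1 to kinetochores, had 259 and 196 FPKM in control, 298 and 235 under cisplatin, 93.0 and 47.2 under doxorubicin, and 229 and 201 under tunicamycin. BUB1, a kinase that marks the inner centromere, had 63.9 and 41.9 FPKM in control, 46.7 and 30.2 under cisplatin, 15.0 and 7.81 under doxorubicin, and 54.1 and 38.4 under tunicamycin. Both were lower throughout, and the fold was largest under doxorubicin, with a log2 ratio of -0.98 for BUB3. TTK (MPS1), the kinase at the top of the checkpoint, had 35.9 and 19.1 FPKM in control, 18.4 and 15.8 under cisplatin, 0.804 and 0.860 under doxorubicin (not called), and 20.5 and 16.4 under tunicamycin. Its KO value was lower in control, by a log2 ratio of -0.91, and under cisplatin and tunicamycin.

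MAD2L1, the checkpoint protein that binds CDC20, had 73.5 and 58.5 FPKM in control and 60.4 and 51.4 under doxorubicin, both lower, and 57.5 and 65.9 under cisplatin and 45.4 and 51.4 under tunicamycin, neither of which was called. BUB1B (BUBR1), which inhibits the anaphase-promoting complex, was called in 1 table, cisplatin, at 27.3 and 20.1 FPKM. Its other values were 24.3 and 27.5 FPKM in control, 4.86 and 2.80 under doxorubicin and 25.7 and 25.98 under tunicamycin, and a read-through gene on the same strand, BUB1B-PAK6, shares its exons.

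The genes of anaphase promotion were lower in control, cisplatin and tunicamycin without exception among the 3. CDC20, the activator of the anaphase-promoting complex in mitosis, had 275 and 233 FPKM in control, 196 and 133 under cisplatin, 36.6 and 40.8 under doxorubicin, and 216 and 177 under tunicamycin, and was called higher under doxorubicin. UBE2C, the ubiquitin-conjugating enzyme of the complex, had 443 and 330 FPKM in control, 368 and 316 under cisplatin, 125 and 124 under doxorubicin (not called), and 376 and 319 under tunicamycin. PTTG1 (securin), the separase inhibitor that the complex destroys at anaphase, had 319 and 211 FPKM in control, 229 and 195 under cisplatin, 246 and 242 under doxorubicin (not called), and 210 and 185 under tunicamycin. Its near copies PTTG2 (listed at 0 in every group) and PTTG3P (at most 0.498 FPKM) had little or no signal.

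Centromere and kinetochore genes held the lowest ratios of control cells, with a median log2 ratio of -0.90 over the 5 genes. CENPF, a large kinetochore and nuclear matrix protein that accumulates in G2, had 148 and 63.4 FPKM in control, 64.8 and 45.7 under cisplatin, 9.17 and 3.07 under doxorubicin, and 77.8 and 40.1 under tunicamycin. Its log2 ratio was -1.22 in control and -1.58 under doxorubicin, the lowest of the 42 genes in both tables. NUF2 and NDC80 pair as the arm of the kinetochore that grips microtubules. NUF2 had 63.9 and 30.1 FPKM in control, 34.0 and 25.7 under cisplatin, 26.4 and 19.4 under doxorubicin, and 39.0 and 28.3 under tunicamycin, and was lower throughout. NDC80 had 49.7 and 26.7 FPKM in control, 33.4 and 28.3 under cisplatin, 1.31 and 1.07 under doxorubicin (not called), and 28.8 and 19.9 under tunicamycin. The partners had log2 ratios of -1.09 and -0.90 in control.

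CENPA, the histone H3 variant that marks centromeres, had 40.3 and 31.0 FPKM in control, 33.9 and 25.6 under cisplatin, 12.1 and 10.9 under doxorubicin (not called), and 39.9 and 28.1 under tunicamycin. Its exons overlap SLC35F6 on the same strand. CENPE, the kinetochore motor that brings chromosomes to the spindle equator, was called in 1 table, cisplatin, at 6.12 and 4.48 FPKM. Its KO values were also below WT elsewhere, at 12.5 and 9.15 FPKM in control, 1.26 and 0.633 under doxorubicin and 10.1 and 8.78 under tunicamycin, but these did not pass.

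Of the spindle motors, KIF11 and KIF23 were lower under every treatment. KIF11 (Eg5), which pushes the spindle poles apart, had 52.5 and 34.6 FPKM in control, 35.04 and 28.0 under cisplatin, 1.85 and 1.05 under doxorubicin, and 33.2 and 22.8 under tunicamycin. KIF23, the motor of the centralspindlin complex of cytokinesis, had 54.5 and 30.7 FPKM in control, 50.2 and 36.0 under cisplatin, 2.99 and 1.09 under doxorubicin, and 43.8 and 23.9 under tunicamycin. Its log2 ratio of -1.45 under doxorubicin (q = 0.0163 in the authors' deposited table) rests on a KO level near 1 FPKM. KIF2C (MCAK), which takes microtubules apart at centromeres, had 77.6 and 66.4 FPKM in control and 77.1 and 64.5 under tunicamycin, both lower, 65.1 and 71.4 under cisplatin (higher) and 20.2 and 20.7 under doxorubicin (not called). KIF20A, a motor of the central spindle, and KIF4A, a chromosome-bound motor, were lower under cisplatin and tunicamycin, with log2 ratios between -0.29 and -0.17, and were not called in control or doxorubicin.

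All 7 genes that bundle or bind spindle microtubules were lower in KO cells except under doxorubicin, where 4 were lower and 2 higher. HMMR, a spindle pole protein that is also a hyaluronan receptor, had 15.3 and 7.35 FPKM in control, 8.27 and 4.91 under cisplatin, 4.15 and 2.87 under doxorubicin, and 12.6 and 8.06 under tunicamycin. ASPM, which focuses spindle poles, had 25.6 and 14.0 FPKM in control, 11.6 and 6.81 under cisplatin, 1.16 and 0.562 under doxorubicin, and 14.7 and 11.3 under tunicamycin. Both were lower throughout, by log2 ratios that reached -1.06 for HMMR in control and -1.05 for ASPM under doxorubicin. PRC1, which crosslinks microtubules of the central spindle, had 146 and 120 FPKM in control, 154 and 114 under cisplatin, 139 and 95.7 under doxorubicin, and 131 and 95.6 under tunicamycin. NUSAP1, which stabilises microtubules near chromatin, had 99.4 and 77.8 FPKM in control, 90.3 and 71.3 under cisplatin, 55.9 and 46.2 under doxorubicin, and 75.9 and 57.2 under tunicamycin, so both bundlers were lower in each KO group.

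TPX2, which activates AURKA on spindle microtubules, had 265 and 187 FPKM in control, 186 and 137 under cisplatin, 27.0 and 33.8 under doxorubicin, and 191 and 158 under tunicamycin. TACC3, an AURKA substrate that crosslinks kinetochore fibres with clathrin, had 74.6 and 66.4 FPKM in control, 65.5 and 53.5 under cisplatin, 8.81 and 12.04 under doxorubicin, and 48.5 and 45.2 under tunicamycin. Both were called lower in the 3 other tables and higher under doxorubicin, by log2 ratios of 0.33 and 0.45, and the tunicamycin value of TACC3 (-0.10) turned to 0.037 when ratios were centred on the median of S-phase genes. DLGAP5 (HURP), which stabilises kinetochore fibres, had 72.0 and 46.2 FPKM in control, 37.9 and 28.7 under cisplatin, 16.5 and 15.8 under doxorubicin (not called), and 46.6 and 37.8 under tunicamycin.

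Both cytokinesis genes were lower under every treatment. ANLN (anillin), the scaffold of the contractile ring, had 163 and 94.2 FPKM in control, 101 and 62.3 under cisplatin, 119 and 70.3 under doxorubicin, and 108 and 52.4 under tunicamycin. Its log2 ratio of -1.05 was the lowest under tunicamycin. ECT2, the exchange factor that activates RhoA at the cleavage site, had 73.3 and 42.6 FPKM in control, 61.2 and 43.2 under cisplatin, 30.8 and 14.2 under doxorubicin, and 60.5 and 41.0 under tunicamycin.

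FOXM1 and MKI67 were not lower in KO control cells. FOXM1, a transcription factor of G2/M genes, had 87.6 and 94.3 FPKM in control and 110 and 103 under cisplatin, neither called, and 87.5 and 75.8 under doxorubicin and 80.9 and 63.9 under tunicamycin, both lower. MKI67, the antigen of the Ki-67 proliferation stain, had 72.7 and 82.0 FPKM in control, 86.8 and 85.7 under cisplatin, 6.75 and 6.92 under doxorubicin, and 79.4 and 65.5 under tunicamycin. It was the only one of the 42 called higher in control, by a log2 ratio of 0.17, and it was lower under tunicamycin and not called in the other two.

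The drug response within a genotype is given as the log2 ratio of treated over control, with a pseudocount of 1 on both FPKM values. It crosses tables that the authors normalized separately and has no test, and the scale understates the change of genes at low FPKM. Background shares are over genes with an FPKM of 1 or more in either group. Doxorubicin stood apart. In WT cells 34 of the 42 genes were at least 1.5-fold lower than in control and none was as much higher, where 54.4% of 12663 genes were lower and 11.0% higher. In KO cells 33 were lower and 1 higher, against 54.1% and 13.2% of 12680 genes. The median of the 42 was -2.13 in WT and -2.16 in KO cells, and that of all genes -0.72 and -0.74, so a general shift of these tables is part of each value. Centred on that median, the 42 genes had a median of -1.40 in WT and -1.42 in KO cells, and 3 and 4 of them were at least 1.5-fold higher.

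The 42 genes spread widely under doxorubicin, from -5.13 (CKS2) to 0.39 (CKS1B) in WT cells. In all, 12 of them were at a log2 ratio of -3 or below in both genotypes: CCNA2, CCNB1, CKS2, PLK1, AURKA, TTK, CENPF, NDC80, KIF11, KIF23, ASPM and MKI67. CKS2 stood at 2.65% of control in WT and 3.47% in KO cells, PLK1 at 3.23% and 2.75%, CCNA2 at 2.89% and 2.07%, and NDC80 at 2.63% and 4.02%. They come from most of the functional groups, and other members of the same groups stood higher, such as NEK2 at 11.7% of control in WT cells and NUF2 at 41.2%. Another 7 genes stayed within 1.5-fold of control in both genotypes: CDK1, BIRC5, MAD2L1, PTTG1, PRC1, ANLN and FOXM1. The shares of all genes that met these 2 bounds in both genotypes were not counted. Taken by genotype, 15 genes in WT and 12 in KO cells were at -3 or below, where the lower quartile of all genes was -1.60 and -1.67. Within 1.5-fold were 8 of the 42 in each genotype, a smaller share than among all genes. FOXM1 was at 99.9% of control in WT and 80.4% in KO cells, PRC1 at 94.9% and 79.5%, BIRC5 at 89.2% and 105%, and PTTG1 at 77.0% and 115%. CKS1B was at 131% of control in WT and 233% in KO cells, the only one of the 42 at least 1.5-fold higher, which it was in KO cells; the difference between genotypes was not tested.

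Some partners and paralogs stood far apart under doxorubicin, and others did not; the pairs named here were chosen after their values were seen. The paralogs CKS1B and CKS2 had 437 and 11.8 FPKM in WT cells under the drug, from 334 and 448 in control. CDK1 kept 70.3% of its control level in WT cells and 122% in KO cells, while its cyclins CCNB1 and CCNA2 were at 6.18% and 2.89% in WT and 7.49% and 2.07% in KO cells. NUF2 kept 41.2% and 64.4%, and its partner NDC80 2.63% and 4.02%. In the passenger complex, BIRC5 kept 89.2% and 105%, and AURKB 22.2% and 24.5%. The checkpoint partners BUB1 and BUB3 stood closer together, at 23.5% and 35.9% in WT cells. The pattern was nearly the same in both genotypes: over the 42 genes the response in WT and KO cells had a Pearson r of 0.96 and a Spearman rho of 0.96, as a description over genes whose values come from the same pair of tables. Over the same genes, the response in WT cells had an r of -0.03 with gene span and 0.04 with the control level.

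**Figure D4:**
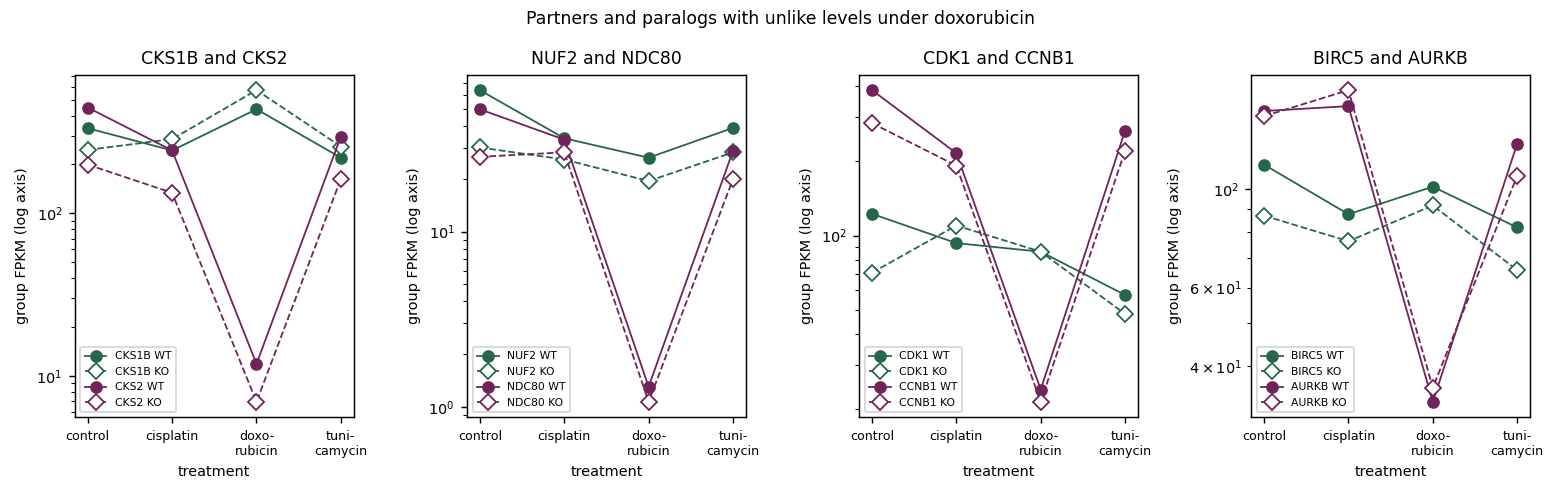
Group FPKM (log axis) by treatment of CKS1B and CKS2, NUF2 and NDC80, CDK1 and CCNB1, and BIRC5 and AURKB, with filled circles and solid lines for WT and open diamonds and dashed lines for KO cells (lines only guide the eye). In each panel the lines part at doxorubicin, where CKS2 stood at 11.8 FPKM and CKS1B at 437 in WT cells.

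Cisplatin was followed by lower levels of a smaller set. In WT cells 13 genes were at least 1.5-fold lower and none as much higher, against 12.4% and 19.9% of 13015 genes, and in KO cells 7 were lower and 1 higher, against 14.7% and 18.9%. The count of lower genes was thus well above the share of all genes in WT cells, and close to it in KO cells. The medians were -0.42 in WT and -0.24 in KO cells, where all genes had 0.11 and 0.13. Lower in both genotypes were PLK1, AURKA, CENPE, DLGAP5, ASPM and ANLN. Past this fold in WT but not in KO cells were CCNA2, CCNB1, CKS2, TTK, CENPF, NUF2 and HMMR, and in KO but not in WT cells CDC20, a difference that was not tested. The KO ratios of CKS2 (-0.571) and CCNB1 (-0.568) fell just short of the cut, while CCNA2 had -0.70 in WT and -0.02 in KO cells. CENPF had the lowest ratio in WT cells, at 43.8% of control, against 72.1% in KO cells. CDK1 was at 76.2% of control in WT and 155% in KO cells, and it was the gene at least 1.5-fold higher. FOXM1, at 125% and 109%, MKI67, at 119% and 105%, BUB3, at 115% and 120%, and AURKB, at 103% and 114%, lay above control in both genotypes. In KO cells the log2 ratios of FOXM1 (0.12) and MKI67 (0.06) were below the median of all genes, and those of BUB3 (0.26) and AURKB (0.19) above it.

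Tunicamycin gave small ratios. In WT cells 14 genes were at least 1.5-fold lower and none as much higher, against 11.8% and 10.6% of 12850 genes, and in KO cells 5 were lower and none higher, against 8.88% and 8.63% of 12763 genes. Here too the count of lower genes was well above the share of all genes in WT cells and close to it in KO cells. The medians were -0.37 and -0.29, and those of all genes -0.07 in both genotypes. CCNA2 and CENPF were lower in both genotypes, at 51.6% and 52.6% of control in WT and 61.2% and 63.2% in KO cells. CDK1 had the lowest ratio in WT cells, at 47.0% of control, and stood at 68.1% in KO cells. The response of the 42 genes in WT and KO cells had a Pearson r of 0.58 under cisplatin and 0.39 under tunicamycin, lower than under doxorubicin, where the ratios also span a wider range.

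**Figure D5:**
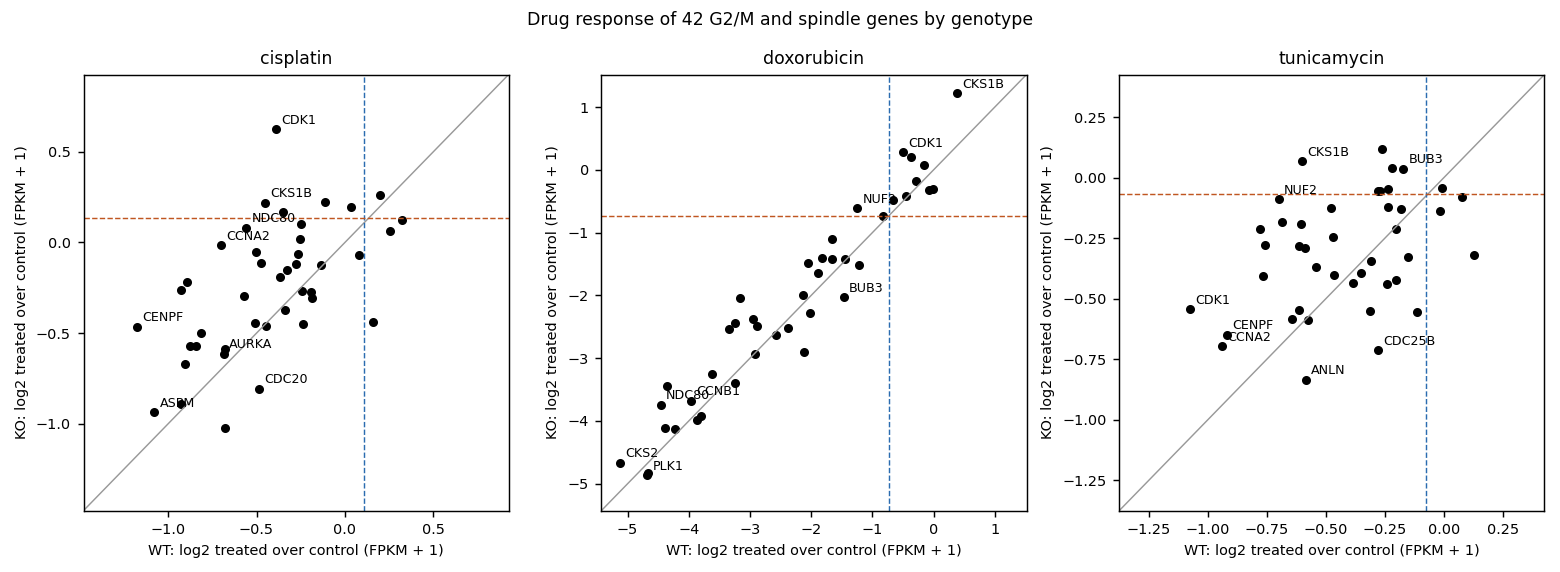
Treated over control log2 ratio (FPKM + 1) of each of the 42 genes in WT (x axis) and KO cells (y axis), 1 panel per drug with its own scale; the grey diagonal marks equal response, and the dashed blue and orange lines the median of all genes in WT and KO cells. In doxorubicin the points follow the diagonal from CKS2 (-5.13 and -4.66) to CKS1B (0.39 and 1.22), and under cisplatin CDK1 lies farthest above the diagonal (-0.39 and 0.63).

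The difference between drug and control in the KO over WT log2 ratio (FPKM + 1) is above 0 where that ratio was higher under the drug. Such a value can stand for a narrower, a reversed or a wider gap between genotypes. Under doxorubicin the ratio of CKS1B went from -0.44 to 0.39, and that of CDC25B from 0.04 to 0.85. The difference has no test, and the 3 drugs are set against the same control groups. The median over the 42 genes was 0.17 under cisplatin, 0.21 under doxorubicin and 0.14 under tunicamycin, and that of all tested genes -0.02, 0.01 and 0.01. It was above 0 in 30, 28 and 26 of the 42 genes, against 48.7%, 50.8% and 50.9% of all tested genes. The highest values under cisplatin were those of CDK1 (1.01), CENPF (0.71) and CCNA2 (0.68). In doxorubicin CDC25C (1.12), TTK (0.92) and CKS1B (0.83) were highest and BUB1B (-0.80) was lowest. The levels of CDC25C and TTK under doxorubicin were below 2 FPKM in both genotypes. In tunicamycin CKS1B (0.67) and NUF2 (0.61) were highest.

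Other genes of the same machinery, in 7 lists with 108 genes that do not include the 42, had a smaller share of lower calls than the 42 in each table. In control 48 of 108 were lower and 13 higher (21.1% and 22.7% of all tested genes), and under tunicamycin 43 and 22 of 108 (22.1% and 27.2%). Under cisplatin the counts were 38 and 24 of 108 (24.2% and 25.4%), and under doxorubicin 28 and 25 of 102 tested (20.7% and 24.4%), with the lower calls closest to the share of all genes under doxorubicin. Their median log2 ratios were -0.23, -0.02, -0.06 and -0.12, closer to 0 than those of the 42 genes in each table. Of 29 further kinetochore genes, 10 were lower and none higher in control, 7 and 6 under cisplatin, 7 and 6 of 28 tested under doxorubicin, and 9 and 5 under tunicamycin. Lower in control were CENPN (188 to 69.5 FPKM from WT to KO), which binds CENPA nucleosomes, and SPC25 (41.0 to 17.3), a subunit of the complex of NDC80 and NUF2. Of 17 further motor and centrosome genes, 9 were lower and 3 higher in control, 9 and 2 under cisplatin, 4 and 4 of 15 tested under doxorubicin, and 12 and 3 under tunicamycin. TOP2A, the topoisomerase that doxorubicin poisons, was lower in KO cells in each table, with 160 to 101 FPKM in control and 51.9 to 42.8 under doxorubicin. SPC25 was also lower in each table, while CENPN was not called under any drug.

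Several of the largest folds among these further genes lay in chromosome windows that were shifted as a whole. The genome was cut into 281 windows of 10 Mb with at least 10 tested genes, and 28 of them had a median log2 ratio of at least 0.30 in size and of 1 sign in all 4 tables. None of the 42 genes lay in such a window, while 13 of the 108 further genes did. The window of CKS2 missed the rule under cisplatin only, with medians of -0.36 in control, -0.17 under cisplatin, -0.44 under doxorubicin and -0.35 under tunicamycin. That of CCNB2 passed the bound in control (-0.31) and under doxorubicin (-0.37). Those of ASPM (-0.48 in control), CDK1 (-0.34 under doxorubicin) and ECT2 (-0.37 under doxorubicin) also passed it downward. Those of BUB1 (0.30 under cisplatin and 0.39 under tunicamycin), DLGAP5 (0.33 under cisplatin), TACC3 (0.32 in control) and CCNB1 (0.31 under cisplatin) passed it upward. The part of such regional shifts in the ratios of the 42 genes was not tested. CKAP2, a spindle protein on chromosome 13, was higher in each table, with 43.4 to 96.2 FPKM from WT to KO under cisplatin, and the genes of its window had a median log2 ratio of 1.27 there. CKAP5, a microtubule polymerase on chromosome 11, was lower in each table, with 83.2 to 40.7 FPKM under cisplatin and a window median of -0.46. The citron kinase of cytokinesis, CIT, on chromosome 12, had 13.2 to 2.45 FPKM under cisplatin and a window median of -0.42. Outside these windows 40 of 95 further genes were lower and 9 higher in control, 30 and 20 under cisplatin, 22 and 20 of 89 under doxorubicin, and 35 and 18 of 95 under tunicamycin.

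DREAM and MuvB are complexes that repress or activate G2/M genes. Of 12 of their genes, 3 were higher and 3 lower in control, 5 and 2 under cisplatin, 3 and 1 of 11 tested under doxorubicin, and 5 and 2 under tunicamycin. MYBL2 (B-MYB), which activates G2/M genes with MuvB, was higher in KO cells in each table, from 57.2 to 147 FPKM in control, 103 to 148 under cisplatin, 14.8 to 63.8 under doxorubicin and 39.6 to 99.5 under tunicamycin. Its window was not shifted. TFDP1, the partner of E2F factors, was also higher in each table, from 119 to 251 FPKM in control, and it lies on chromosome 13 in a shifted window whose genes had a median of 0.87 (log2) in control. Of 31 S-phase replication genes, 11 were higher and 9 lower in control, 13 and 5 under cisplatin, 9 and 10 of 30 under doxorubicin, and 9 and 11 under tunicamycin. For these lists too, the shares of all tested genes are 22.7%, 25.4%, 24.4% and 27.2% higher and 21.1%, 24.2%, 20.7% and 22.1% lower, so in control the regulators lay close to them. Of the CDK inhibitors and p53 response genes tested, 1 was higher and 5 lower of 8 in control, 2 and 2 of 9 under cisplatin, 3 and 3 of 8 under doxorubicin, and 2 and 4 of 8 under tunicamycin. SFN (14-3-3 sigma), which holds CDK1 complexes in the cytoplasm, was higher in KO cells in each table, from 117 to 135 FPKM in control. CDKN1A (p21), the CDK inhibitor of the p53 response, was lower in KO cells in each table, at 22.9 to 14.1 FPKM in control, 76.9 to 62.4 under cisplatin, 24.03 to 15.4 under doxorubicin and 28.8 to 21.6 under tunicamycin.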

How the data were processed

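DNase-treated total RNA went into mRNA libraries that were sequenced as paired ends, per the labels' protocols. STAR 2.5.3, Trimmomatic 0.35, FastQC 0.11.5, Cuffdiff, Cufflinks and build hg38 are named in the submitters' processing notes. No annotation release or strand setting is given in the sources used here, which leaves genes with overlapping exons (16 of the 42, by GENCODE release 29) uncertain. For each treatment the authors deposited a table (4 in all) with 1 FPKM value per group from both replicates, normalized separately, and columns were matched to WT and KO by the group codes of the tables. Log2 values, as deposited, are KO over WT without a pseudocount, and recomputation matched them to within 4.64e-05. The p-values and q-values deposited by the authors come from Cuffdiff, measure the spread that it estimated between 2 replicates, and if these are technical they measure that alone. The test statistic, a score deposited by the authors, was not used further.

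No values per replicate were given, so no SD, refit or depth can be stated, and the depth is unknown. Ratios, counts and medians were computed with Python 3.11.15 and pandas 2.3.3, and the scripts were tested on simulated data. Treated over control ratios used a pseudocount of 1, with background genes at 1 FPKM or more in either group, and calls past 1.5-fold. By the rule, all 8 group levels were due for members among the 6 with the largest called ratio of a table, called both ways, or lower in all 4 tables; they are printed for the others too, except KIF20A and KIF4A. From other lists at most 3 genes per list and table were eligible, by ratio, at 5 FPKM or more; CDKN1A, MYBL2, TFDP1 and the other genes named from these lists are also given in further tables. Promoters are from RefSeq (GRCh38.p14), and for 31 of the 35 genes the first transcribed bases matched a GENCODE transcript. The members and lists were chosen with earlier results of these data known. Alternatives were another q, a fold minimum, centring, other pseudocounts, shares of summed FPKM and, chosen after seeing the data, removal of genes in shifted chromosome windows or with overlapping exons and centring on S-phase genes.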

Additional observations from a re-analysis of the deposited data

Results flagged for a closer look

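In all, 10 of the 42 genes were called in opposite directions under 2 treatments, against 12.9% of the 10881 genes tested under all 4. With at least 1.5-fold asked as well, the only higher call left was that of CDC25B under doxorubicin. Its lower call under tunicamycin was of a smaller fold, so no gene was then called both ways. For each of the 10 genes, the log2 ratio of KO over WT in the treatment where it was highest is set against that where it was lowest. The difference itself was not tested, since the tables give no spread per replicate.

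The widest gaps were those of CDC25B, CCNA2, CDK1 and CKS1B. CDC25B, the phosphatase that starts CDK1 activation, had 0.92 under doxorubicin and -0.40 under tunicamycin, a difference of 1.33. CCNA2 had 0.22 under cisplatin and -0.96 under doxorubicin, 1.17 apart, and CDK1 had 0.24 under cisplatin and -0.79 in control, 1.03 apart. The doxorubicin ratio of CCNA2 rests on 2.68 FPKM in WT and 1.38 in KO cells. With a pseudocount of 1 it was -0.63, against 0.21 under cisplatin. CKS1B had 0.39 under doxorubicin and -0.44 in control, a difference of 0.833.

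Next were TPX2, close to CKS1B, and then TACC3 and CDC20. TPX2 had 0.33 under doxorubicin and -0.50 in control (0.828 apart), TACC3 0.45 under doxorubicin and -0.29 under cisplatin (0.742), and CDC20 0.16 under doxorubicin and -0.57 under cisplatin (0.725). For these the highest value was under doxorubicin, where the levels of TPX2, TACC3 and CDC20 in WT cells were 10.2%, 11.8% and 13.3% of control.

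The smallest gaps were those of MKI67, with 0.17 in control and -0.28 under tunicamycin (0.452), KIF2C, with 0.13 under cisplatin and -0.26 under tunicamycin (0.389), and AURKB, with 0.12 under cisplatin and -0.24 under tunicamycin (0.36).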

How the results depend on the processing

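No paired analysis was possible because the tables give 1 value per group; for the same reason no replicate could be left out, and no symbol repeated. Of 152 alternatives of counts and medians, 113 stayed within the set range, 39 moved and 0 changed sign. Only a median can change sign, so for the counts this last result was fixed in advance. Asking for 1.5-fold as well left 17, 7 and 5 genes lower in control, cisplatin and tunicamycin, and 0, 0, 1 and 0 higher in control, cisplatin, doxorubicin and tunicamycin. The 26 genes without exon overlap, fewer by construction, gave 21, 9 and 24 lower under cisplatin, doxorubicin and tunicamycin. With 1.5-fold, the further mitotic genes gave 4 higher and 23 lower of 108 in control, and 7 and 11 of 108 under cisplatin. They gave 10 and 13 of 102 tested under doxorubicin, and 5 and 7 of 108 under tunicamycin. Of all tested genes, 11.8%, 11.9%, 13.1% and 10.5% were lower at this fold in the same order. The lower calls of the further genes thus stood above the share of all genes in control only.

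For treated over control, 2-fold left 2 genes lower in WT cisplatin, 1 in WT tunicamycin, 1 in KO cisplatin (0 higher) and 0 in KO tunicamycin. As shares of summed FPKM, 8 genes were lower in WT tunicamycin, 0 higher in KO cisplatin, and the doxorubicin medians were -2.40 in WT and -2.60 in KO cells. A pseudocount of 0.1 gave -2.23 and -2.43. Centred on expressed genes, the medians were -0.53 and -0.37 in WT and KO cisplatin and -1.40 and -1.42 under doxorubicin. Then 3 and 4 genes were higher in WT and KO doxorubicin, a smaller share than that of all genes, and 0 in KO cisplatin. With the same centring, 8, 12 and 3 were lower in WT tunicamycin, KO cisplatin and KO tunicamycin. Of the values of single genes, 335 kept their direction and 1 reversed, TACC3 under tunicamycin, to 0.037 when centred on S-phase genes. Apart from arithmetic, the cause was not tested. Depth is unknown, so ratios of genes under 3 FPKM in a group under doxorubicin (ASPM, KIF23, KIF11, NDC80, TTK, CENPE, CDC25C, CCNA2, BUB1B, HMMR) have no stated precision.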
